A study of Mus musculus with 9 samples.

Results

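The 8 genes encoding the troponin subunits, Tnnt1, Tnnt2 and Tnnt3 (troponin T), Tnni1, Tnni2 and Tnni3 (troponin I) and Tnnc1 and Tnnc2 (troponin C), were compared between the heart and the quadriceps muscle of sham operated mice. They were selected by gene symbol in the count table of the comparison, in which they were 8 of 24537 gene names and 33 of 35745 RefSeq transcripts. C57Bl6 mice underwent transverse aortic constriction (TAC), which loads the left ventricle with pressure, or sham surgery at the age of 8 weeks, and RNA was obtained 12 weeks later. RNA sequencing libraries were made from 3 sham hearts, 3 sham quadriceps muscles and 3 TAC quadriceps muscles. The troponins were not among the 587 genes of secreted proteins listed for TAC, so that only the 6 sham libraries were used here. All 6 came from wild-type mice of the same strain, and the labels do not tell from which mouse a library came or which part of the heart was taken. The p-values therefore measure the spread between these libraries.

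The troponin complex sits on actin in the thin filament of striated muscle and switches contraction on when calcium rises. Troponin T (TnT) anchors the complex to tropomyosin, troponin I (TnI) inhibits the interaction of actin with myosin, and troponin C (TnC) binds calcium and relieves this inhibition. Slow skeletal, fast skeletal and cardiac muscle use different genes for TnT and TnI, whereas heart and slow fibres share the same TnC.

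The total counts ranged from 33102826 to 38382751 per heart library and from 23383452 to 32989108 per quadriceps library. The 10 cardiomyocyte markers summed to between 25105 and 27503 CPM (counts per library size after scaling with TMM factors) in heart and to between 6.39 and 7.17 in quadriceps, where Nkx2-5, Gata4 and Tbx20 had no counts. The 10 fast fibre markers summed to between 51477 and 78045 in quadriceps and to between 95.4 and 155 in heart. The heart libraries differed in atrial genes. The atrial light chain Myl7 had 2075 counts in heart library 1, 164 in library 2 and 3 in library 3. The 4 atrial markers summed to 661, 417 and 189 CPM in heart libraries 1, 2 and 3. Most of these sums was Nppa (457, 398 and 186 CPM), which is also on the cardiomyocyte list. The other atrial markers fell more steeply, with Myl4 at 143, 15.0 and 2.12 CPM and Sln at 17.6, 0.954 and 0.0466 CPM. Each fold change of a troponin is therefore also given below without heart library 1. Fewer cells of a type and less RNA per cell cannot be told apart in these bulk samples.

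All 33 troponin transcripts were tested, and 22 were higher and 11 were lower in quadriceps by the criterion used (log2 fold change over 2 or under -2 with an unadjusted p below 0.05). Among all 24280 transcripts tested, 7.00% were higher and 8.64% were lower. Counted by gene, with the most counted transcript of each gene name, 5 troponins were higher (Tnnt1, Tnnt3, Tnni1, Tnni2 and Tnnc2) and 3 were lower (Tnnt2, Tnni3 and Tnnc1). Among the 14906 gene names tested in this way, 7.14% were higher and 9.04% were lower. The adjusted p of edgeR's quasi-likelihood test was below 0.05 for all 33 transcripts, between 1.78e-09 and 9.22e-08, and for 66.6% of all transcripts tested. The 3 heart and the 3 quadriceps values did not overlap for any of the 33 troponin transcripts, which was also the case for 72.6% of all transcripts, so that the absence of overlap as such was common. The median log2 fold change was 5.59 over the 8 genes, which went both ways, and -0.05 over all gene names. Relative levels between the tissues depend on the scaling. With library totals in place of TMM factors, the median of all transcripts moved from -0.06 to -0.80 and the log2 fold changes of the 8 genes moved down with it, to 2.75 for Tnnt1, 6.91 for Tnni1, 13.93 for Tnni2, 15.45 for Tnnt3, 17.52 for Tnnc2, -5.35 for Tnnc1, -11.14 for Tnnt2 and -13.75 for Tnni3. No direction changed.

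**Figure D1:**
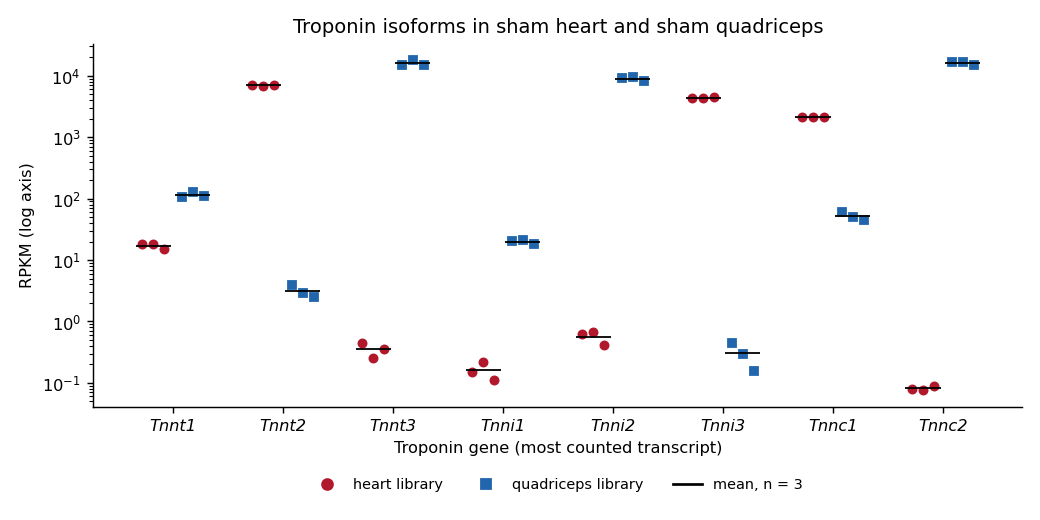
RPKM (reads per kilobase of transcript, scaled to the library total) of the most counted transcript of each troponin gene on a log axis, with 1 point per library (circles for heart, squares for quadriceps) and a line at the mean of 3 libraries. Tnnt2, Tnni3 and Tnnc1 were the 3 highest in heart, and Tnnc2, Tnnt3 and Tnni2 the 3 highest in quadriceps. The tissues did not overlap for any gene.

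The 8 genes lie in 5 places of the mouse genome (GRCm38, the NCBI name of the mm10 build used for the counts). Tnni1 (chr1:135779434-135810989, plus strand) is followed by Tnnt2 (chr1:135836354-135852260, plus strand) after 25364 bases that hold 1 other gene. Tnni3 (chr7:4518305-4524229, minus strand) precedes Tnnt1 (chr7:4504570-4516382, minus strand) by 1922 bases with no gene in between. In both pairs the neighbours differed in opposite directions, since Tnnt2 and Tnni3 were lower and Tnni1 and Tnnt1 were higher in quadriceps. Tnni2 (chr7:142441808-142444410, plus strand) and Tnnt3 (chr7:142498836-142516009, plus strand) are 54425 bases apart and were both higher in quadriceps. Tnnc1 (chr14:31208312-31211729, plus strand) and Tnnc2 (chr2:164777161-164779967, minus strand) have no troponin gene nearby.

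The promoters of both close pairs are shown since these neighbours went opposite ways. Each sequence holds the 250 bases before the RefSeq start (GRCm38.p6), read on the strand of the gene, and capitals mark matches to the motifs searched. The windows are chr1:135799171-135799420 for Tnni1, chr1:135836084-135836333 for Tnnt2, chr7:4522529-4522778 for Tnni3 and chr7:4515976-4516225 for Tnnt1. Those of Tnni1, Tnni3 and Tnnt1 lie inside the gene intervals given above, which are from GENCODE and begin farther upstream.
Tnni1: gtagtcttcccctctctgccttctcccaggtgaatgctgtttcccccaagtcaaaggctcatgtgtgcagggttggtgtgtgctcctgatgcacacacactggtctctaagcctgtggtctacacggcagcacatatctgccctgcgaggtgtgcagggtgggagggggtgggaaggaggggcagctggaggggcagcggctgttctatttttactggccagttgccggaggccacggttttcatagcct
Tnnt2: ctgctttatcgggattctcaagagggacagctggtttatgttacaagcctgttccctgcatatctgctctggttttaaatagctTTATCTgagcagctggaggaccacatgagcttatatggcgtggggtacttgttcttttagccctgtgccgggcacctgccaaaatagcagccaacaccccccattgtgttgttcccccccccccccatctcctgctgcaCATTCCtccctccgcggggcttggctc
Tnni3: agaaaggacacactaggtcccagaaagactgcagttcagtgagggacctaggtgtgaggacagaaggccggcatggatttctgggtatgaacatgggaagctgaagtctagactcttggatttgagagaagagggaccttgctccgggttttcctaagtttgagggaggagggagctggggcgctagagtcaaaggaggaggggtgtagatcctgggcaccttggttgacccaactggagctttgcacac
Tnnt1: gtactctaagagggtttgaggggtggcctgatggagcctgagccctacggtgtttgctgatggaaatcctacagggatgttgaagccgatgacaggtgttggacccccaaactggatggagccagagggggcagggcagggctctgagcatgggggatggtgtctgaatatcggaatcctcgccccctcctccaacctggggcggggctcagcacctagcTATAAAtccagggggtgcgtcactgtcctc

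Both strands were searched. The motifs were the MCAT element with the letters CATTCC, the GATA factor motif with the letters AGATAA, the TATA box with the letters TATAAA, the MEF2 core with the letters CTANNNNTAG, and the CArG box by its name. No pair of these motifs overlapped in the matches found. The Tnnt2 promoter held the MCAT element at positions -27 to -22 from the start and GATA on the opposite strand at -166 to -161. The Tnnt1 promoter held TATA at -30 to -25. The Tnni1 and Tnni3 windows held no match, and other annotated starts of these genes were not examined. Of the other pair with an entry, Tnnc1 held MCAT on the opposite strand at -58 to -53 and Tnnc2 held none, while Tnni2 and Tnnt3 had no entry. Among 32851 promoter windows of this length, MCAT occurred in 12.6%, TATA in 12.4%, GATA in 9.99%, the MEF2 core in 3.20% and the CArG box in 1.47%. MCAT and TATA are thus frequent in promoters in general, and the matches describe the letters of these windows only.

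Tnnt2, the TnT of cardiac muscle, was counted 313959, 310458 and 283994 times in heart against 153, 114 and 69 times in quadriceps (transcript NM_001130178). All heart values were far above all quadriceps values. The log2 fold change of quadriceps over heart was -10.39 ± 0.23 (SE; adjusted p = 1.97e-09, edgeR's quasi-likelihood test), and -10.38 without heart library 1. The normalised level was 1321-fold higher in heart, with a 95% interval of counting error from 1187 to 1474. This interval and those given below pool the reads of the libraries of a tissue and leave out the spread between libraries.

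Tnnt3, the TnT of fast skeletal fibres, was counted 17, 10 and 12 times in heart and 503778, 598982 and 359441 times in quadriceps (NM_001163669). It was the gene with the highest RPKM in quadriceps libraries 2 and 3 and was at rank 2 in library 1. The log2 fold change was 16.21 ± 0.35 (SE; adjusted p = 1.78e-09, edgeR's quasi-likelihood test), and 16.43 without heart library 1. This was a 76755-fold difference with an interval from 56147 to 107939, which is wide because the heart values rest on few reads.

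Tnnt1, the TnT of slow skeletal fibres, was counted 3555, 4350 and 2595 times in quadriceps against 678, 715 and 505 times in heart (NM_001277903). Unlike Tnnt2 and Tnnt3 it was counted at least 505 times in each library of the lower tissue. Its log2 fold change of 3.51 ± 0.15 (SE; adjusted p = 8.95e-08, edgeR's quasi-likelihood test) was the smallest in size among the 8 genes, and it was 3.55 without heart library 1. The level was 11.3-fold higher in quadriceps (interval of counting error 10.8 to 11.9). The single libraries spread more widely, with 131, 182 and 147 CPM in quadriceps and 14.2, 14.2 and 11.8 CPM in heart. The adjacent Tnni3 had the reverse pattern.

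Tnni3, the cardiac TnI, was counted 132660, 136093 and 121472 times in heart and 12, 8 and 3 times in quadriceps. Every quadriceps library held some reads of it, at levels near the limit of counting. The log2 fold change was -13.01 ± 0.26 (SE; adjusted p = 1.78e-09, edgeR's quasi-likelihood test), and -13.02 without heart library 1. The level was 8288-fold higher in heart (interval 5523 to 13074).

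Tnni2, the fast skeletal TnI, was counted 199454, 206528 and 128277 times in quadriceps against 15, 17 and 9 times in heart. It was at rank 3, 4 and 5 by RPKM in quadriceps libraries 1, 2 and 3. Its log2 fold change over heart was 14.69 ± 0.28 (SE; adjusted p = 1.78e-09, edgeR's quasi-likelihood test), and 14.74 without heart library 1.

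Tnni1, the slow skeletal TnI that is also the TnI of the embryonic heart, was counted 710, 753 and 465 times in quadriceps against 6, 9 and 4 times in heart (NM_021467). It was the least abundant of the 5 troponins that were higher in quadriceps. Fitted on all libraries, the difference was 7.66 ± 0.20 on the log2 scale (SE; adjusted p = 3.87e-09, edgeR's quasi-likelihood test), and 7.61 without heart library 1. The level was 208-fold higher in quadriceps (interval 133 to 346). In heart the RPKM of slow TnT was thus well above that of slow TnI, 17.2 against 0.160.

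Tnnc1, the TnC of cardiac muscle and slow fibres, was counted 54383, 57076 and 48735 times in heart and 1359, 1167 and 731 times in quadriceps. The log2 fold change was -4.61 ± 0.14 (SE; adjusted p = 7.65e-09, edgeR's quasi-likelihood test) with and without heart library 1. This was a 24.0-fold difference (interval 23.2 to 24.9), much smaller than for Tnnt2 and Tnni3, the other troponins that were lower in quadriceps.

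Tnnc2, the fast skeletal TnC, was counted 2 times in each heart library and 381067, 378268 and 239662 times in quadriceps. It had the highest RPKM of all genes in quadriceps library 1 and was at rank 2 in the others. The log2 fold change was 18.26 ± 0.30 (SE; adjusted p = 1.78e-09, edgeR's quasi-likelihood test), the largest in size of the 8 genes, and 18.23 without heart library 1. Only 6 reads in all stand behind the heart value, and the ratio of 340859.7 has a counting interval from 156603 to 928820.1.

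Transcripts of the same gene had nearly the same counts, as they do when a read is counted for each transcript it overlaps. The setting is not given in the sources used here. The transcripts of a gene differed in the tissue of higher level by at most 0.897% for Tnnt1 (3 transcripts), 3.74% for Tnnt2 (9 transcripts), 1.83% for Tnnt3 (15 transcripts) and 17.2% for Tnni1 (2 transcripts). The other 4 genes had 1 transcript each. The counts of different transcripts of a gene are not independent values.

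Fast TnT transcripts differ in a pair of mutually exclusive exons near the 3′ end of the coding sequence. These exons are shown because they are the difference between a pair of Tnnt3 transcripts of equal length with unequal counts. The exon of NM_001163665 (chr7:142513665-142513705) lies before that of NM_001163664 (chr7:142514326-142514366), both on the plus strand of GRCm38, and 18 of their 41 positions are identical.
NM_001163665: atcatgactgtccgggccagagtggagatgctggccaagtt
NM_001163664: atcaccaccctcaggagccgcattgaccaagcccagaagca

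Both transcripts are listed with 1060 bases. NM_001163664 had 501888, 596478 and 358008 counts in quadriceps and NM_001163665 had 497210, 588109 and 353228 counts. The former was higher in each library, by 4678, 8369 and 4780 reads, or 0.932%, 1.40% and 1.34% of its count. In heart both had 17, 10 and 12 counts. Reads that reach a shared neighbouring exon count for both transcripts in such counting, and this net difference does not give the share of either exon in the RNA.

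In the order of levels per transcript length (RPKM), heart had Tnnt2 (7018 ± 216, SD, n = 3), Tnni3 (4421 ± 78.6) and Tnnc1 (2123 ± 14.6) on top. These were at ranks 3, 5 or 6, and 10 among all gene names in the heart libraries. Tnnt1 followed with an RPKM of 17.2 ± 1.83, and the other 4 genes were below an RPKM of 1. Tnni2 (0.566 ± 0.136) and Tnnt3 (0.353 ± 0.0970) overlapped between libraries, and Tnni1 (0.160 ± 0.0535) and Tnnc2 (0.0811 ± 0.00638) came last.

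In quadriceps, Tnnc2 (RPKM 16270.2 ± 1124, SD, n = 3) and Tnnt3 (15968 ± 1558) overlapped on top and Tnni2 followed (9031 ± 623). The slow isoforms Tnnt1 (116 ± 12.5), Tnnc1 (51.9 ± 7.51) and Tnni1 (20.0 ± 1.38) came next in RPKM, in this order in each library and without overlap. Tnnt2 (3.10 ± 0.747) and Tnni3 (0.302 ± 0.147) were lowest. Both tissues therefore had a top group with exactly 1 TnT, 1 TnI and 1 TnC gene.

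The share of each isoform in its subunit does not depend on the scaling between libraries. In heart, Tnnt2 made up 99.7%, 99.7% and 99.8% of the TnT level per kilobase. Tnnt1 made up nearly all of the remainder, at 0.254%, 0.270% and 0.209%. In quadriceps its shares were larger, at 0.706%, 0.727% and 0.722%. The Tnnt1 shares did not overlap between tissues (exact two-sided permutation test, p = 0.1, the smallest p that 3 against 3 libraries allow). Tnni3 made up 100.0% of TnI in each heart library at this precision, where Tnni1 reached 0.00342%, 0.00501% and 0.00249%.

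In quadriceps, slow isoforms were a minor share of each subunit. Of slow and fast TnT together, Tnnt1 made up 0.718% ± 0.011 (SD, n = 3). Tnni1 made up 0.221% ± 0.0027 of slow and fast TnI. Tnnc1 made up 0.317% ± 0.028 of TnC. With the most counted transcript of each gene, the TnT share was the highest and the TnI share the lowest in each of the 3 libraries. This order depends on how transcripts are combined. Summed over all transcripts, which gives genes with many listed transcripts more weight, the mean shares were 0.145% for TnT, 0.317% for TnC and 0.413% for TnI, in the reverse order, and with raw counts the TnI share (0.360%) exceeded the TnC share (0.322%). The slow myosin heavy chain Myh7 made up 0.723%, 0.975% and 0.675% of the counts per kilobase of Myh7, Myh2, Myh1 and Myh4, the myosins of adult fibres. It was highest in quadriceps library 2, in which the shares of Tnni1 and Tnnt1 were also highest, by less than their SD over the 3 libraries. The share of Tnnc1 was highest in library 1, with 0.350% against 0.303% in library 2 and 0.299% in library 3.

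**Figure D2:**
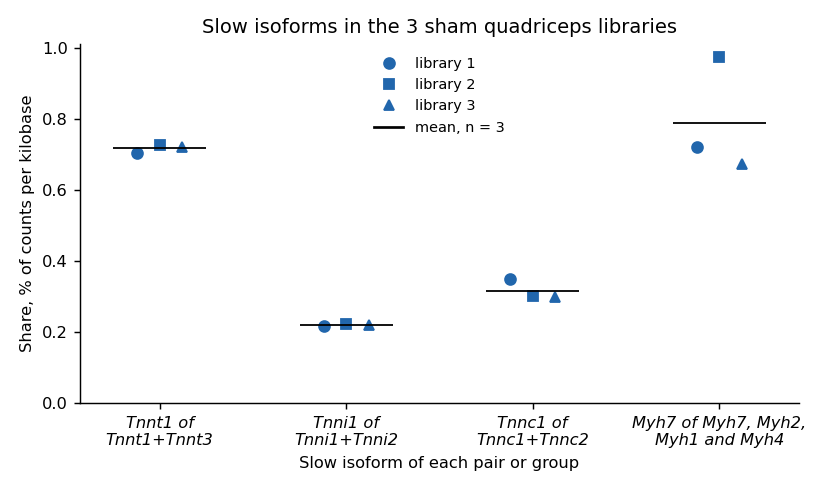
Share of the slow isoform in the counts per kilobase of each troponin subunit and of the adult myosin heavy chains, in percent, for the 3 sham quadriceps libraries (points) with their mean (lines). Levels are those of the most counted transcript of each gene. All shares were below 1%, with TnT at 0.718%, TnC at 0.317% and TnI at 0.221%, and the order was reversed (0.145%, 0.317% and 0.413%) when transcripts were summed.

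The ratios between the subunits differed between the tissues as well. The TnT level per kilobase was 3.37, 3.17 and 3.40 times that of TnC in heart, against 0.888, 1.06 and 1.01 times in quadriceps. The values of the tissues were far apart, with means of 3.31 ± 0.12 and 0.987 ± 0.090 (SD, n = 3; exact two-sided permutation test, p = 0.1, the smallest possible). TnI per TnC was 2.08 ± 0.046 in heart and 0.555 ± 0.012 in quadriceps (exact permutation p = 0.1). TnT per TnI was 1.59 ± 0.030 in heart and 1.78 ± 0.126 in quadriceps (exact permutation p = 0.1). Summed over transcripts, the log2 of quadriceps over heart moved from 0.158 to 0.885 for TnT per TnI and from -1.75 to -1.02 for TnT per TnC, with the directions kept. These are ratios of read counts per length, and differences between transcripts in how well they are captured or counted were not tested.

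**Figure D3:**
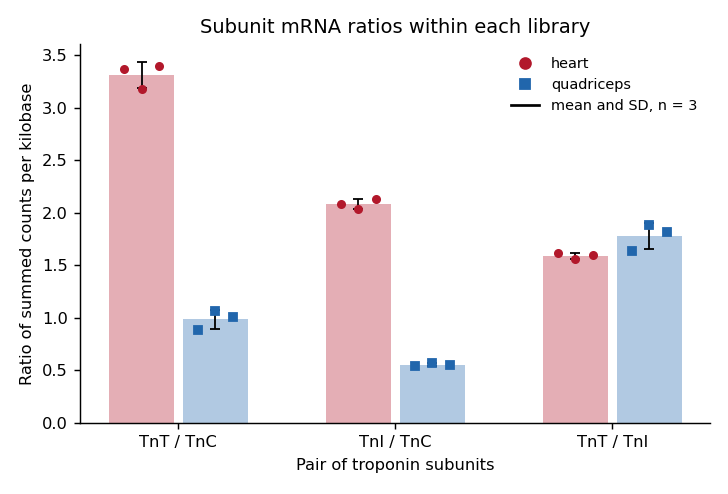
Ratios of the summed counts per kilobase of the TnT, TnI and TnC genes within each library. Points are libraries, bars are means of 3 libraries and error bars are SD. TnT and TnI per TnC were higher in all heart libraries than in all quadriceps libraries, whereas TnT per TnI was 1.59 in heart and 1.78 in quadriceps.

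Small amounts of the troponins that were higher in the other tissue were found in each library. As a share of its normalised level in heart, Tnni3 in quadriceps was 121 ppm (95% interval of counting error 76.5 to 181). The cardiac myosin heavy chain Myh6 was at 168 ppm (146 to 192) and the cardiac myosin binding protein Mybpc3 at 68.4. Tnnt2 was higher, at 757 ppm (678 to 843), near the calcium pump inhibitor Pln with 702. In the single quadriceps libraries Tnnt2 was at 0.0872%, 0.0739% and 0.0605% of its heart level. Tnni3 reached at most 0.0159% and Myh6 at most 0.0181%. Tnnc1 was at 41623 ppm, which is 4.16% of its level in heart. It is also the TnC of slow fibres. Its log2 fold change of -4.61 lay among those of Casq2 (-4.23), Myl3 (-4.41), Myl2 (-5.23) and Atp2a2 (-5.54). These genes are listed as shared by slow fibres and heart, as are Myh7 (-2.03) and Tpm3 (7.95), which lay outside this range. Of the 10 cardiomyocyte markers, the highest in quadriceps was the transcription factor Tbx5 with 20723 ppm, and the median was 125 ppm.

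In heart, Tnnc2 was at 2.93 ppm of its level in quadriceps (1.08 to 6.39), Tnnt3 at 13.0 (9.26 to 17.8) and Tnni2 at 37.5 (26.9 to 50.9). In the single heart libraries Tnnt3 was at 0.00168%, 0.000935% and 0.00132%. Tnnc2 was lower, at most 0.000321%, and Tnni2 was higher, at least 0.00270%. The lowest of the 10 fast fibre markers was Actn3 with 12.7 ppm, and Pvalb, Mylpf and Myh4 were at 14.3, 25.3 and 28.4. The list reached far higher, with Myh2 at 480 ppm, Mybpc2 at 11562 ppm and Casq1 at 38773 ppm, and its median was 72.5 ppm. Tnni1 was at 4814 ppm (2898 to 7517) and Tnnt1 at 88297. Whether such reads came from the tissue itself, from another library or sample, or from an overlapping gene was not tested.

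**Figure D4:**
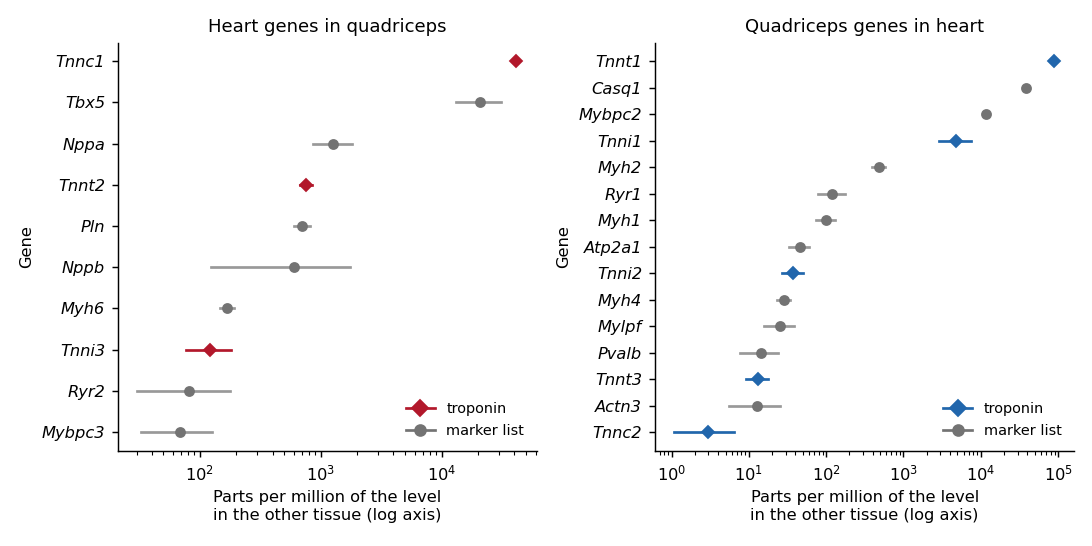
Normalised level in the tissue of lower expression, in ppm of the level in the other tissue, on a log axis, for heart genes in quadriceps (left) and quadriceps genes in heart (right). Diamonds are troponins, circles are genes of the cardiomyocyte and fast fibre marker lists with at least 1 count, and lines are 95% intervals of counting error. Tnnc1 (41623) and Tnnt1 (88297) were at the upper ends, and Tnnc2 (2.93) was the lowest.

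Markers of fibre types and of other cells were read beside the slow troponins. Myh7 was lower in quadriceps than in heart (log2 fold change -2.03 ± 0.22, SE), with 5103, 8133 and 5585 counts in quadriceps. Mybpc1, the slow skeletal myosin binding protein, was counted 42275, 29114 and 34642 times in quadriceps and 2, 4 and 4 times in heart. Its RPKM in quadriceps (331, 226 and 379) was not far below that of the fast fibre marker Mybpc2 (347, 456 and 459). Whether the Mybpc1 reads came from slow fibres was not tested, and they do not measure the slow fibre content. Over all gene names tested, 7.14% were higher and 9.04% were lower in quadriceps. Of the 6 genes listed as shared by slow fibres and heart, 5 were lower in quadriceps. Tpm3 was higher, and its low counts in heart (54, 52 and 41, against 7798, 6285 and 4024 in quadriceps) go against its place in this list. Of the markers of developing or regenerating fibres, 4 of 5 tested were higher in quadriceps. Among them, the embryonic myosin Myh3 had 137, 87 and 105 counts in quadriceps and 38, 42 and 38 in heart. The 3 satellite cell markers were at 0 in heart and summed to between 2.10 and 2.38 CPM in quadriceps. None of the 4 smooth muscle markers passed the criterion. The part of these cells in the troponin levels was not tested.

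The genes listed as thin filament partners, which include proteins of the Z-disc, went both ways as well. Of 20 thin filament partners, all tested, 6 were higher and 4 were lower in quadriceps, and their median log2 fold change was 1.37. Over all gene names tested the shares were 7.14% and 9.04%, and the median was -0.05. Farthest towards quadriceps was Actn3, the fast fibre alpha-actinin of the Z-disc, which is also in the fast fibre list, with 87745, 130518 and 90196 counts in quadriceps and 3, 4 and 1 in heart (log2 fold change 16.22 ± 0.41, SE). Tpm2, the beta-tropomyosin to which TnT binds, followed with 8.28 ± 0.28, and Neb, which encodes the giant filament ruler nebulin, with 8.22 ± 0.45. Farthest towards heart was Nebl, the nebulin relative of the heart, which was counted 2013, 2220 and 1749 times in heart against 4, 0 and 1 times in quadriceps (-9.12 ± 0.29). Actc1, the cardiac actin, had a log2 fold change of -5.20 ± 0.38, and the formin Fhod3 of -2.34 ± 0.16. The adjusted p values of these 6 genes were between 3.73e-09 and 2.53e-06 (edgeR's quasi-likelihood test).

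**Figure D5:**
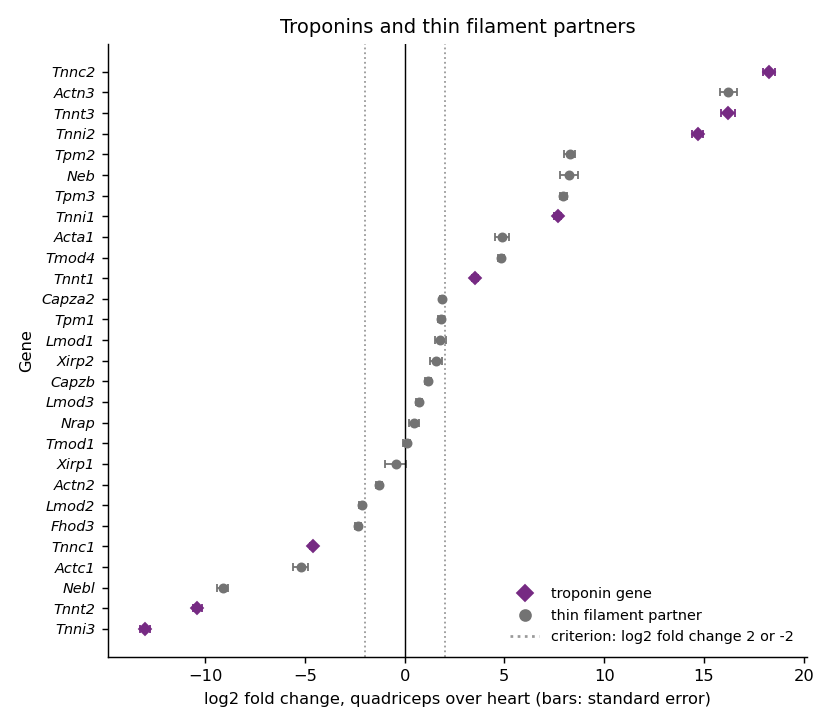
Log2 fold change of sham quadriceps over sham heart for the 8 troponin genes (diamonds) and 20 thin filament partners (circles), with standard errors and dotted lines at the criterion of 2 and -2. Tnnc2 (18.26) and Tnni3 (-13.01) are at the ends, and 10 of the 20 partners lie between the dotted lines.

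The genes most like each troponin were found by the distance of log2 profiles (TMM-scaled CPM per kilobase plus 0.5) over the 6 libraries among 14898 other gene names. Tnni3 was nearest to Myh6 (distance 0.663) and then to Pln (2.45), and Tnnt2 had the same neighbours at larger distances (3.98 and 4.12). Tnnc1 was nearest to the slow calcium pump gene Atp2a2 (2.40) and to Actc1 (2.55). The fast genes Tnni2, Tnnt3 and Tnnc2 were each nearest to Mylpf, the fast regulatory light chain (1.16, 2.32 and 2.42), and then to Pvalb, a calcium buffer of fast fibres (1.64, 2.69 and 2.68). Tnni1 was nearest to Padi2 (0.210) and Shisa2 (0.482). Tnnt1 was nearest to St3gal6 (0.932) and Gpd1 (0.968). With only 2 tissues, such a likeness says mainly that levels and tissue difference were similar.

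Troponin genes that overlap another gene are uncertain, since the use of strand in the counting is not given in the sources used here. Tnnc1 overlaps Nisch on the other strand, counted 3960, 4080 and 3292 times in heart against 716, 674 and 518 times in quadriceps. This was far fewer than Tnnc1 in heart (54383, 57076 and 48735). In quadriceps it was also fewer, but nearer to the 1359, 1167 and 731 counts of Tnnc1. Tnnc2 overlaps Ube2c on the other strand, counted 23, 24 and 37 times in heart against 12, 5 and 16 times in quadriceps. In heart this was more than the 2 counts of Tnnc2 in each library. Tnnt3 overlaps Prr33 on the other strand, counted 518, 501 and 500 times in heart against 3332, 3834 and 2418 times in quadriceps. In heart this was more than the 17, 10 and 12 counts of Tnnt3. Whether the low heart counts of Tnnc2 and Tnnt3, or the quadriceps counts of Tnnc1, hold reads of the overlapping genes was not tested. The annotation of Tnni3 overlaps Dnaaf3 on the same strand, counted 203, 204 and 208 times in heart against 7, 2 and 2 times in quadriceps. In quadriceps this was near the 12, 8 and 3 counts of Tnni3. Strand cannot separate reads of these genes, and whether the quadriceps counts of Tnni3 hold reads of Dnaaf3 was not tested.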

How the data were processed

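RNA sequencing libraries of sham heart (n = 3) and sham quadriceps (n = 3) were compared. According to the methods, mRNA was purified, prepared with the ScriptSeq v2 kit and sequenced as single reads. The authors trimmed reads with Trim Galore, aligned them to mm10 with STAR and counted them with Rsubread (submitters' processing notes name Trim Galore, STAR, edgeR and mm10). They deposited raw counts per RefSeq transcript, transcript lengths and RPKM, which the authors computed from the counts. Log fold changes, F values and p-values of the authors' own comparison were not used. Also unused were 6 columns with RPKM of single libraries, which belong to the table for TAC and its secreted-protein genes.

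The main test was edgeR's quasi-likelihood test (version 4.0.16, R 4.3.3) with TMM factors and Benjamini-Hochberg adjusted p-values. It used the 24280 transcripts that exceeded 5 counts in at least 2 of the libraries. The step was tested on simulated data of this comparison, with 200 of 23866 transcripts changed by a log2 fold of 2. It recovered 97.5% of them at an adjusted p below 0.05, and 3.94% of its calls were false. All simulated transcripts had the same dispersion and few were changed, whereas 66.6% of the real transcripts passed this threshold. These rates therefore do not describe the calls made here by the criterion of fold change and unadjusted p. RPKM and counts per kilobase were used for levels within a library. Shares and ratios were compared by exact permutation with scipy 1.17.1. Alternatives were DESeq2 1.42.0, limma 3.58.1 on log2 RPKM, library totals, other filters, other gene levels, a replicate block and leaving out each library. Intervals of fold differences are exact binomial intervals at 95%, and those in ppm are exact Poisson intervals at 95% with the other tissue's level held fixed. Both use reads pooled over the libraries of a tissue. They cover counting error only and leave out the spread between libraries. No molecular identifiers were used. No libraries were duplicates, since every pair of replicates differed by more than the sampling noise. Heart and quadriceps libraries of the same number showed no shared deviation from their group means (correlations 0.05, -0.05 and 0.04), so that the numbers were not taken as pairs.

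Named were all 8 troponins, the 3 highest and 3 lowest of the thin filament partners past the criterion, the 2 nearest profiles of each troponin, and troponin neighbours within 50 kb, beside genes of the marker lists. Tnni2 and Tnnt3 lie farther apart and overlapping genes are no troponins, and both were added after their values were seen. The members and lists were chosen with earlier results of these data known. Positions are from GENCODE and promoters from RefSeq (GRCm38.p6), which held 6 of the 8 genes.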

Additional observations from a re-analysis of the deposited data

How the results depend on the processing

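The log2 fold changes of the 8 genes kept their direction and remained past the criterion under every alternative that tested them. Their ranges were 2.68 to 3.64 (Tnnt1), -11.14 to -10.25 (Tnnt2), 13.53 to 16.43 (Tnnt3), 4.18 to 7.93 (Tnni1), 12.49 to 14.81 (Tnni2), -13.75 to -11.74 (Tnni3), -5.36 to -4.50 (Tnnc1) and 13.88 to 18.40 (Tnnc2), with adjusted p up to 2.62e-06 (edgeR, DESeq2 or limma). With at least 10 counts in every library, only 4 troponin genes were tested and 2 were higher, because the others lack counts in the tissue of lower level. With library totals there were 1136 higher and 4171 lower transcripts in place of 1699 and 2097. With log2 RPKM in limma 552 were higher and 1344 lower (pseudocount 0.5), 801 and 2609 (0.1), and 419 and 903 (1). With at least 10 counts in every library they were 861 and 839.

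With the replicate block, Tnnt1 had a log2 fold change of 3.50, 5 troponin genes were higher and 3 lower, and 1687 transcripts were higher and 2098 lower; the block changed no call of a troponin, and the counts of troponin genes and thin filament partners past the criterion were the same with it. Same-numbered libraries share only a number.

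Shares and ratios depend on how the transcripts of a gene are combined. Summed over transcripts, which counts reads repeatedly, the slow share of TnT in quadriceps was 0.145% in place of 0.718%, and that of TnI was 0.413% in place of 0.221%. The TnI share was 0.207% with the mean over transcripts and 0.360% with raw counts. The log2 of quadriceps over heart for TnT per TnC was -1.02 summed and -1.95 with raw counts (reported as -1.75), that for TnI per TnC was -2.19 with raw counts (reported as -1.91), and that for TnT per TnI was 0.885 summed (reported as 0.158). Depth limits the low values: those of Tnnc2 in heart and Tnni3 in quadriceps rest on 6 and 23 reads.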
